A study of Mus musculus with 4 samples.

Results

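The respiratory chain moves electrons from NADH and succinate to oxygen through complexes I to IV of the inner mitochondrial membrane, pumps protons on the way, and drives the ATP synthase, complex V, with the proton gradient. Each complex is built from many subunits, most of them encoded in the nucleus and some of the core ones in mitochondrial DNA. T cells activated through the T cell receptor raise glycolysis and mitochondrial respiration together, and their growth and division draw on both. The genes described here are those whose symbol begins with Nduf, Uqcr, Cox4 to Cox8 or Atp5, with Sdha, Sdhb, Sdhc, Sdhd, Cyc1 and Cycs added. The rule found 92 genes with 130 array features (spots assigned to a gene), out of 33709 gene features in the series, which stand for 19087 genes where features with several symbols are not counted as genes. The rule used gene symbols only, but it was set with earlier results of these data known. Complex I held 42 of the genes, complex II 4, complex III 9, complex IV 19 and complex V 17, and Cycs encodes cytochrome c, the carrier between complexes III and IV. Ndufa4l2 and the 13 mitochondrially encoded subunits were not analysed here, so complexes I, III, IV and V were seen through their nuclear subunits.

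The cells were CD4+CD25- T lymphocytes purified from the spleens of C57BL/6 animals and activated in culture for 12 h with antibodies to CD3 and to CD28, which stand in for the antigen signal and its co-signal. One group came from db/db mice, which carry the mutated leptin receptor on both chromosomes and become obese and insulin resistant. The other came from db/+ mice, which carry 1 mutated and 1 functional copy and are labelled wild type. Each group had 2 samples, each a pool of 3 mice, and each pool was read on its own one-colour array of 45220 features. The labels name the db/db phenotype leptin-deficient, while the series text names deficiency of the leptin receptor. The receptor was missing or impaired in every tissue of the db/db mice, so a difference in T cells cannot be told apart from one that follows obesity or insulin resistance. Ages were not given in the sources used here.

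The pools also differed in more than the leptin receptor. Transcripts of the Y chromosome separated the groups: Kdm5d was at a log2 intensity of 12.16 and 12.20 in the db/db pools, against 5.93 and 6.31 in the db/+ pools, and the brightest kept feature of Xist was at 10.06 and 6.60 in the db/db pools, against 14.33 and 13.88 in the db/+ pools. Genotype and the sex of the mice therefore cannot be told apart in any value below. Most markers of myeloid cells were higher in db/db pools: 5 of the 8 measured neutrophil markers were called higher. Camp at 2.02 and Retnlg at 0.32 were not called. Mpo went the other way at -0.86, also not called, with db/+ pools at 9.06 and 12.47. The summed intensity of the neutrophil list, in which S100a9 was brightest, was 64747 and 68802 in db/db pools, against 7310 and 20250 in db/+ pools. The macrophage and monocyte list summed to 30906 and 29855 in db/db pools and 4090 and 9944 in db/+ pools, with 3 of 4 genes called higher. Cd8a and Cd8b1, which CD4+ T cells should lack, were called higher by 1.53 and 0.86 log2 units. The rest of the CD8 and cytotoxic list was not called: Klrd1 had 0.89, Prf1 0.42, Nkg7 0.29 and Gzmb -0.10. That list summed to 115168 and 110265 in db/db pools and 87881 and 100698 in db/+ pools, and Gzmb, its brightest gene, weighed most in the sum. Of the B cell list, 2 of 6 genes, Bank1 and Cd79a, were called higher. The sum of that list was 18163 and 12683 in db/db pools and 7720 and 11224 in db/+ pools. Ms4a1, at means of 13.1 in db/db and 12.28 in db/+ pools, was above background and not called. The same held for Cd79b, at means of 11.88 and 11.66. Pax5 and Blk were at background in both groups. The erythroid list, with none of 3 genes called, summed to 19625 and 18065 in db/db pools and 5816 and 13897 in db/+ pools. The CD4 T cell list, with Cd3d, Cd3e, Cd3g, Cd4 and Cd28 all above background and none of the 5 called, summed to 60248 and 62904 in db/db pools and 34708 and 46017 in db/+ pools. The part of these other cells in the changes below was not tested. In such bulk samples fewer cells of a type and less RNA per cell cannot be told apart.

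Values below are log2 intensities after background correction and quantile normalization, and a fold change is the db/db mean minus the db/+ mean on that scale. A feature was called when its adjusted p was under 0.05 (limma with Benjamini-Hochberg adjustment over all features of the fit, two-sided). Such p-values measure only the spread between pools. With 2 pools against 2, the smallest p that an exact permutation test allows is 0.333. The background level, taken as the median over all gene features, was 7.55. Levels of different features cannot be set against each other, since each binds its own sequence, so only changes of a feature between groups are compared. Runs of spots lying side by side on the grid differed between arrays and were taken as misread stretches, and 31 of the 130 features lay in them. The other 99 features, of 75 genes, are called kept here, and statistics are given for 2 fits, 1 over all gene features and 1 over kept features.

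On the quantile-normalized scale the transcripts of the respiratory chain and ATP synthase did not move as a block between db/db and db/+ pools. Of the 99 kept features, 50 had a positive and 49 a negative fold change, with a median of 0.01, quartiles of -0.29 and 0.31 and 78 features, or 78.8%, within 0.5 log2 units of no change. Over all kept gene features the median was 0.04, with quartiles of -0.10 and 0.28. Of the 99 member features 92 lay above background, with a median of 0.02 and quartiles of -0.30 and 0.32, and over all kept features above background the median was 0.19, with quartiles of -0.13 and 0.53. In the fit over all gene features none of the 130 features was called, where 0.997% of all features were, and 27 of the 130 had an unadjusted p below 0.05, against 6578 of all 33709. In the fit over kept features 6 of 99, or 6.06%, were called, against 8.20% of all kept features and 14.6% of those whose mean over all pools lay above background. A feature rose in db/db cells for 3 genes: Ndufs1 and Ndufv3 of complex I and Uqcrh of complex III. A feature fell for another 3: Atp5g1 of complex V and Ndufaf4 and Ndufaf6, which help assemble complex I. Over all kept features 6.69% were called higher and 1.51% lower.

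Separation of the groups was common on these arrays. Both db/db pools lay above both db/+ pools in 29 of 99 kept features, or 29.3%, against 35.1% over all kept features. Both lay below in 28, or 28.3%, against 19.9% over all. Among features above background the shares were 30.4% above and 29.3% below for the members, and 47.0% above and 18.4% below for all kept gene features. The balance between positive and negative fold changes depended on the scaling. With the arrays scaled to equal medians in place of quantile normalization, 77 of the same 99 features had a positive and 22 a negative fold change, with a median of 0.28. That scaling moved the median over all kept gene features less, to 0.12. With cyclic loess the members' split was 50 to 49 and the median 0.02.

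**Figure D1:**
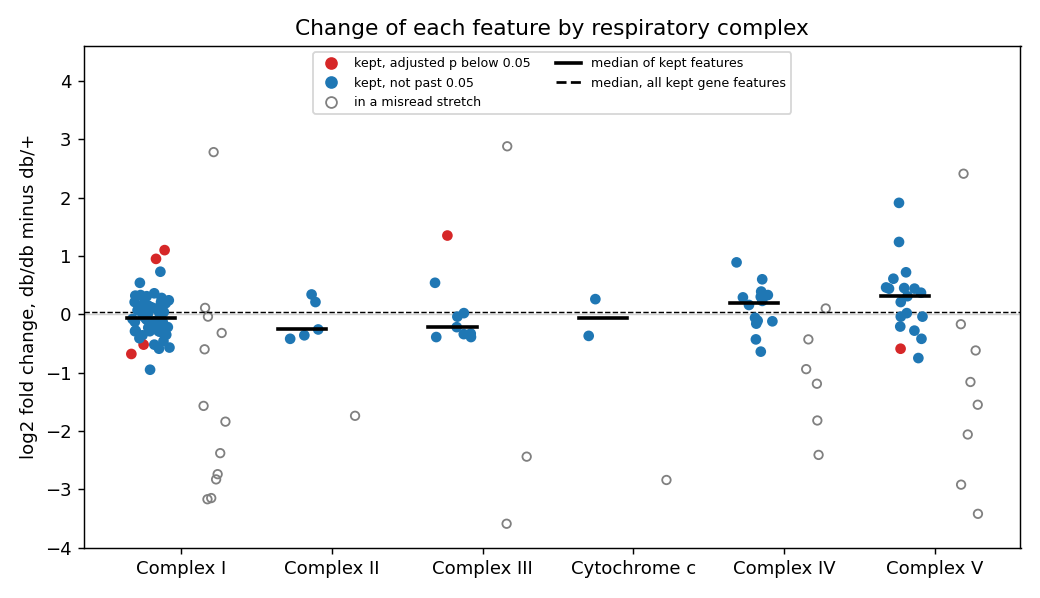
Log2 fold change (db/db minus db/+) of each of the 130 features, by complex. Filled points are kept features, red where the adjusted p is below 0.05, open points lie in misread stretches, thick bars are medians of kept features and the dashed line is the median of 0.04 over all kept gene features. Kept features lie between -0.95 and 1.91 around medians from -0.26 in complex II to 0.31 in complex V, while open points spread much further.

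Complex I, which oxidises NADH and passes its electrons to ubiquinone, had 62 features and 50 kept. Their median fold change was -0.06, with 24 positive and 26 negative values and 4 features called, 2 in each direction. These calls were 8.0% of the 50, close to the 8.20% over all kept features and below the 14.6% over those above background. Complex I has an arm in the matrix, with the N module that binds NADH and the Q module that reduces ubiquinone, and an arm in the membrane that pumps protons. The 15 kept features of the N module had a median of 0.12, the 4 of the Q module -0.12 and the 20 of the membrane arm -0.08. Those of the acyl carrier protein Ndufab1, which sits in both arms, had -0.10 over 4 features. The Q module was taken as Ndufa5, Ndufs3, Ndufs7 and Ndufs8. Ndufa9, at -0.52, was counted with the membrane arm and not with the Q module, and the medians depend on that choice. The 7 kept features of assembly factors had a median of -0.35, and 6 of the 7 had a negative fold change.

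Ndufs1 encodes the largest subunit of the N module and carries several of its iron-sulphur clusters. Its single feature was at 13.71 and 13.63 in db/db pools, against 12.88 and 12.57 in db/+ pools. The groups did not overlap, and Ndufs1 rose by 0.95 ± 0.14 log2 units (SE, 2 pools a group), or 1.93-fold. The limma adjusted p was 0.0951 over all gene features and 0.0339 over kept features.

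Ndufv3, an accessory subunit beside the NADH-binding site, had 3 kept features. The middle one by brightness was at 10.12 and 10.08 in db/db pools and at 9.23 and 8.77 in db/+ pools. It rose by 1.10 ± 0.18 log2 units, or 2.14-fold, with a limma adjusted p of 0.106 over all gene features and 0.0389 over kept features. The brightest feature of Ndufv3 was at 13.46 and 12.91 in db/db pools and 12.98 and 12.75 in db/+ pools, where the groups overlapped. Its fold change was 0.32, with an adjusted p of 0.449 over kept features. The dimmest had a fold change of 0.31, so all 3 were positive and 1 was called.

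The calls of these N module genes depended on the normalization, while their fold changes stayed positive. With the misread stretches removed before rather than after normalization, the fold change was 0.80 for both, with limma adjusted p of 0.0584 for Ndufs1 and 0.125 for Ndufv3. Under median scaling and cyclic loess Ndufs1 was at 1.14 and 0.85, and Ndufv3 at 0.99 and 0.87. Ndufv1, which binds NADH and the flavin that takes its electrons, was at 13.76 and 13.83 in db/db pools and 13.56 and 13.60 in db/+ pools. Those groups did not overlap either, and the fold change of 0.21 did not pass the test (adjusted p = 0.273 over kept features, limma).

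Both called decreases in complex I were in assembly factors, which are not part of the finished enzyme. Ndufaf4, which acts early in building the arms, was on its brightest kept feature at 13.11 and 13.06 in db/db pools, against 13.67 and 13.87 in db/+ pools. It fell by 0.68 ± 0.12 log2 units, 1.6-fold lower, with a limma adjusted p of 0.101 over all gene features and 0.0419 over kept features. The second kept feature was at 8.09 and 7.78 in db/db pools and 8.09 and 8.94 in db/+ pools, a fold change of -0.57 that did not pass. Another feature of Ndufaf4 had a fold change of -3.17, but it lay in a misread stretch described below.

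Ndufaf6, another assembly factor, had 1 feature, at 11.89 and 11.83 in db/db pools, against 12.37 in both db/+ pools. It fell by 0.52 ± 0.09 log2 units, 1.43-fold lower, with a limma adjusted p of 0.0979 over all gene features and 0.0476 over kept features. Among the other assembly factors Ndufaf7 had a fold change of -0.35, Ndufaf1 -0.29, Ndufaf2 -0.03 and Ndufaf5 0.17, and none was called. In the membrane arm the smallest unadjusted p belonged to Ndufc2, an accessory subunit. It was at 15.01 and 14.99 in db/db pools and 15.46 and 15.35 in db/+ pools, a fold change of -0.41 with an adjusted p of 0.0858 over kept features (limma). Under median scaling that value turned to 0.19. The lowest kept fold change in complex I, -0.95 for Ndufa13, came from 1 pool: the feature was at 13.14 and 14.81 in db/db pools and 14.91 and 14.95 in db/+ pools.

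**Figure D2:**
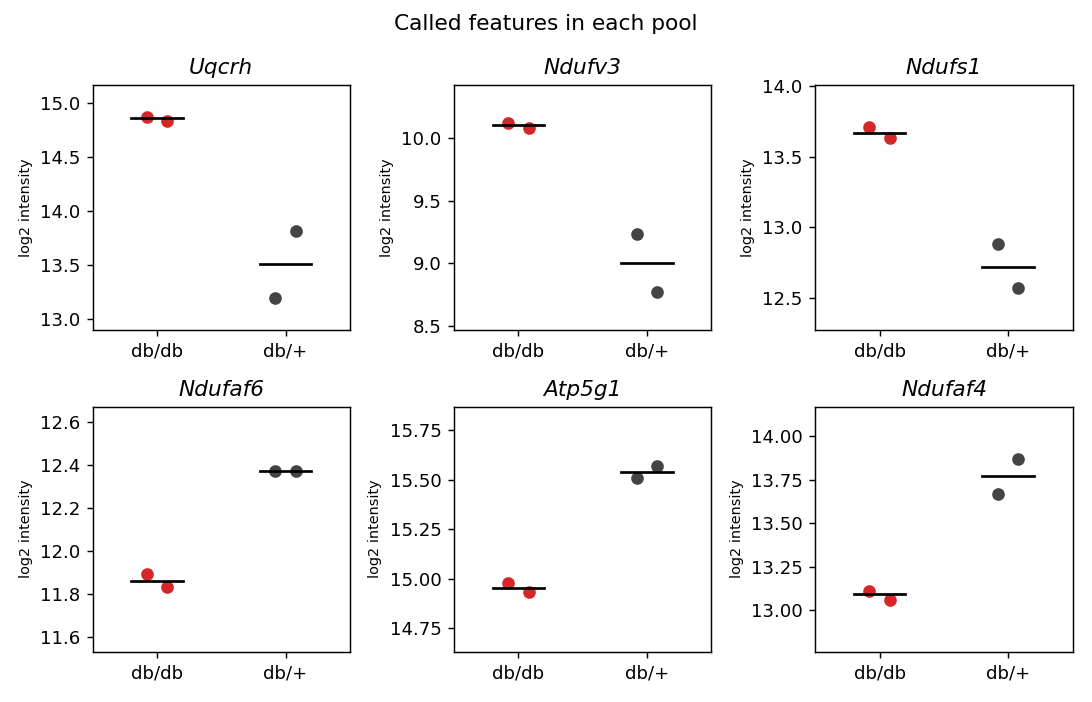
Log2 intensity in each pool of the 6 features called over kept features, db/db at the left of each panel and db/+ at the right; bars are group means and the axes do not start at 0. In the 3 that rose (Uqcrh, Ndufv3, Ndufs1) and the 3 that fell (Ndufaf6, Atp5g1, Ndufaf4) the pools of the groups do not overlap, and the db/db pools lie close together. A choice by adjusted p favours separated groups and close pools, so both traits follow in part from how the features were picked.

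Complex II, the succinate dehydrogenase, belongs to both the tricarboxylic acid cycle and the respiratory chain and has 4 subunits, all nuclear. None of its 5 kept features was called, and the median fold change was -0.26. Sdha, the flavoprotein that oxidises succinate, was at 13.62 and 13.82 in db/db pools and at 13.93 and 12.83 in db/+ pools on its brightest feature, so the groups overlapped (fold change 0.34). A second feature of Sdha was at 9.45 and 9.62 in db/db pools and 9.83 and 9.95 in db/+ pools, a fold change of -0.36 with an adjusted p of 0.149 over kept features (limma). The 2 features of Sdha thus had opposite signs. With the misread stretches removed before normalization the second one was called, at -0.67 (limma adjusted p = 0.0409).

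Sdhb, the iron-sulphur subunit, was at 13.82 and 12.59 in db/db pools and 13.53 and 13.39 in db/+ pools, with both db/+ pools between the db/db pools. Sdhc, which anchors the enzyme in the membrane, was at 11.83 and 12.66 in db/db pools and 12.57 and 12.77 in db/+ pools, a fold change of -0.42 with overlap. Sdhd, the second anchor, was at 14.34 and 14.28 in db/db pools and 14.03 and 14.18 in db/+ pools. Its groups did not overlap, but the fold change of 0.21 did not pass the test (adjusted p = 0.329 over kept features, limma).

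Complex III passes electrons from ubiquinol to cytochrome c. It had 9 kept features with a median fold change of -0.22, 3 positive and 6 negative, and 1 was called. That was 11.1% of the 9, against 8.20% over all kept features and 14.6% over those above background. Uqcrh encodes the hinge protein, which helps cytochrome c1 dock with cytochrome c. Its called feature was at 14.87 and 14.84 in db/db pools, against 13.20 and 13.82 in db/+ pools. It rose by 1.35 ± 0.23 log2 units, or 2.55-fold, with a limma adjusted p of 0.113 over all gene features and 0.0406 over kept features. The other feature of Uqcrh was at 14.25 and 14.67 in db/db pools and 13.85 and 13.99 in db/+ pools. It also separated the groups, with a fold change of 0.54 that did not pass (adjusted p = 0.146 over kept features, limma).

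None of the remaining subunits of complex III was called. Cyc1, the cytochrome c1 that hands electrons to cytochrome c, was at 14.03 and 14.29 in db/db pools and 14.64 and 14.35 in db/+ pools, a fold change of -0.33. Uqcrc2, a core protein, was at 14.13 and 14.36 in db/db pools and 14.73 and 14.43 in db/+ pools, a fold change of -0.34. Uqcrq, a small ubiquinone-binding subunit, was at 15.18 and 14.95 in db/db pools and 15.62 and 15.28 in db/+ pools, a fold change of -0.39. In these 3 features both db/db pools lay below both db/+ pools. Uqcrc1, the other core protein, had fold changes of -0.22 and -0.39 on 2 features, and its groups did not overlap either. Both db/db pools thus lay below both db/+ pools in 5 of the 9 kept features of complex III, or 55.6%. That share was 19.9% over all kept features and 18.4% over those above background. Both lay above in 2 of the 9, or 22.2%, against 35.1% and 47.0%. Uqcrfs1, the Rieske iron-sulphur protein, was at 14.95 in both db/db pools and at 14.98 and 14.88 in db/+ pools, a fold change of 0.02, and Uqcrb, a small accessory subunit, had -0.04 with overlapping groups. Under median scaling the values of Cyc1, Uqcrc2, Uqcrq and the brighter Uqcrc1 feature turned to 0.01, 0.03, 0.23 and 0.25. Cycs itself had fold changes of -0.37 and 0.26 on its 2 kept features, both with overlapping groups.

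Complex IV, the cytochrome c oxidase that reduces oxygen, had 14 kept features, a median fold change of 0.20 and no call. Several of its subunits exist in a ubiquitous form and in forms of heart, muscle, lung or testis. The ubiquitous subunits had a median of 0.29 over 9 kept features, 7 of them positive. Both db/db pools lay above both db/+ pools in 5 of the 9, or 55.6%. That share was 35.1% over all kept features and 47.0% over those above background. Cox4i1, the ubiquitous form of subunit 4, was at 14.60 and 14.58 in db/db pools, against 14.28 and 14.24 in db/+ pools. Cox7a2l, a relative of subunit 7a counted in complex IV by its symbol, was at 14.45 and 14.65 in db/db pools, against 14.12 and 14.19 in db/+ pools. Their fold changes of 0.33 and 0.39 did not pass the test (limma adjusted p = 0.114 and 0.124 over kept features).

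Cox6a1, the widely expressed form of subunit 6a, had a fold change of 0.29, and Cox8a, that of subunit 8, one of 0.30. Both separated the groups and neither was called. Cox7a2, the widely expressed form of subunit 7a, had the highest fold change of complex IV, 0.89, but this rested on 1 pool: it was at 15.16 and 14.90 in db/db pools and 15.05 and 13.24 in db/+ pools. Without db/+ pool 2 the value was -0.02. Ndufa4, first described in complex I and now placed in complex IV, was at 15.22 and 15.17 in db/db pools and 15.44 and 15.27 in db/+ pools, and its fold change of -0.16 turned to 0.45 under median scaling.

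Of the forms of other tissues, most were at or near background. Cox4i2, the lung form, and Cox7b2 and Cox8c, testis forms, were below the background level in both groups, as was Cox8b, a heart and muscle form read only in a misread stretch. Cox6a2, a heart and muscle form, was above background at 10.87 and 10.26 in db/db pools and 10.92 and 11.07 in db/+ pools, a fold change of -0.43 that did not pass (adjusted p = 0.344 over kept features, limma). Cox7a1, the heart and muscle form of subunit 7a, lay just outside the threshold. It was at 7.94 and 7.89 in db/db pools, above background, and at 7.20 and 7.41 in db/+ pools, below it. The measured fold change was 0.60, or at least 1.28-fold against the background level, with a limma adjusted p of 0.118 over all gene features and 0.0527 over kept features.

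Complex V had 19 kept features with a median fold change of 0.31, with 12 positive and 7 negative values. Its only call, or 5.26% of the 19, was a decrease. Atp5g1, one of the genes that encode the same c subunit of the rotating ring, was at 14.98 and 14.93 in db/db pools, against 15.51 and 15.57 in db/+ pools. It fell by 0.59 ± 0.10 log2 units, 1.5-fold lower, with a limma adjusted p of 0.0885 over all gene features and 0.0392 over kept features. The direction held under cyclic loess, at -0.40, but under median scaling the value was 0.01. Its sister genes were not called. The brighter feature of Atp5g2 was at 15.24 and 15.10 in db/db pools, against 15.43 and 15.35 in db/+ pools, a fold change of -0.21 with no overlap, while the dimmer one had 0.37 and Atp5g3 0.21. No difference between these genes was tested.

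In the stalks and the catalytic head of complex V the highest fold changes had widely spread db/+ pools. Atp5h, subunit d of the outer stalk, was on its brightest feature at 15.05 and 15.08 in db/db pools, against 14.24 and 13.40 in db/+ pools. On the other it was at 15.15 and 15.02 in db/db pools, against 14.54 and 11.82 in db/+ pools. Both separated the groups, with fold changes of 1.24 and 1.91 and limma adjusted p of 0.0798 and 0.292 over kept features. The feature at 1.91, the highest of the kept ones, would be left out as misread if stretches were judged by differences within a genotype. Atp5c1, the γ subunit of the shaft, was at 14.94 and 15.08 in db/db pools and 14.14 and 14.66 in db/+ pools, a fold change of 0.61 (adjusted p = 0.152 over kept features, limma). Atp5pb, subunit b of the outer stalk, had 3 kept features with fold changes of 0.44, -0.04 and -0.75 from the brightest to the dimmest. The dimmest was called with the misread stretches removed before normalization, at -1.01 (limma adjusted p = 0.0423). Atp5b, the catalytic β subunit, had -0.04, 0.46 and 0.72, all with overlapping groups. Atp5a1, the α subunit, was read only in misread stretches and has no value that can be used here.

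Since features of 1 gene share their arrays, agreement between them is no replication. Of the 18 genes with at least 2 kept features, 8 had fold changes of both signs, among them Atp5b, Atp5g2, Atp5pb, Cycs and Sdha. The medians of the complexes moved with single pools as well. Over kept features the median of complex V was 0.31, and between 0.09 and 0.25 when any 1 pool was left out. That of complex IV was 0.20, and between 0.05 and 0.27. For complex II the median of -0.26 turned to 0.24 without db/db pool 2. Under median scaling the kept medians were 0.21 for complex I, -0.01 for II, 0.25 for III, 0.62 for IV and 0.63 for V, so complexes I and III changed sign. The order of complexes IV and V was not stable: they were at 0.31 and 0.30 under cyclic loess, both at 0.15 with the stretches removed before normalization, at 0.27 and 0.25 without db/+ pool 1 and at 0.17 and 0.09 without db/db pool 2.

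**Figure D3:**
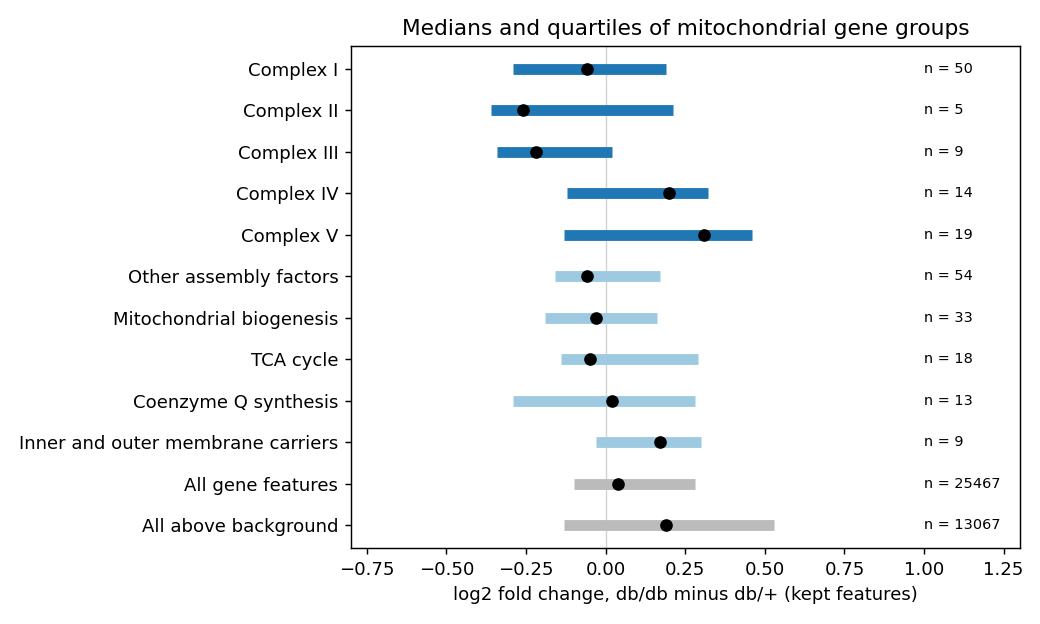
Median (point) and quartiles (bar) of the log2 fold change, db/db minus db/+, over the kept features of each complex, of the lists of related mitochondrial genes and of all gene features. Medians run from -0.26 (complex II) to 0.31 (complex V), and the bars of the complexes overlap each other and that of all gene features.

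Lists of related mitochondrial genes had medians near 0 too. The share of kept features called was 1.85% for other assembly factors, 6.06% for mitochondrial biogenesis and 5.56% for the tricarboxylic acid cycle list. It was 11.1% for the carriers and channels, and no feature of coenzyme Q synthesis was called. Over all kept features the share was 8.20%, and over those above background 14.6%. Of the 40 listed factors that assemble complexes I to V outside the Ndufaf family, 39 had a feature. Their 54 kept features had a median of -0.06 and 1 call: Cox10, which makes the haem of complex IV, was at 7.45 and 7.23 in db/db pools, below background, against 8.03 and 8.16 in db/+ pools. With the db/db mean taken at the background level, Cox10 was at least 1.45-fold lower in db/db cells (measured fold change -0.75, limma adjusted p = 0.101 over all gene features and 0.0407 over kept features). The genes next by unadjusted p, Nubpl for iron-sulphur clusters of complex I at 0.51 and Uqcc2 for complex III at -0.35, did not pass. Uqcc1 was called over all gene features at -3.64 on a feature in a misread stretch, while its 2 kept features had -0.88 and 0.16 and did not pass.

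The 18 genes of mitochondrial biogenesis, which control and copy the mitochondrial genome and switch on nuclear respiratory genes, had 33 kept features, a median of -0.03 and 2 calls. Pprc1, a coactivator of the PGC-1 family that responds to growth signals, was at 13.67 and 13.45 in db/db pools, against 14.30 and 14.29 in db/+ pools. It fell by 0.73 log2 units (limma adjusted p = 0.0962 over all gene features and 0.0384 over kept features). Esrra, the nuclear receptor ERRα, had a dimmer feature that rose by 0.54 (adjusted p = 0.0492 over kept features, limma), while its brighter one had -0.04. Polg, the mitochondrial DNA polymerase, and Polrmt, the mitochondrial RNA polymerase, had fold changes of 0.39 and -0.49 that did not pass.

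Of the 17 enzymes of the tricarboxylic acid cycle and pyruvate dehydrogenase, 16 had a feature, and their 18 kept features had a median of -0.05. Idh3b, a subunit of the NAD-dependent isocitrate dehydrogenase, was at 11.37 and 11.07 in db/db pools, against 12.31 and 12.05 in db/+ pools, and fell by 0.96 log2 units (limma adjusted p = 0.110 over all gene features and 0.0416 over kept features). Dlat, of pyruvate dehydrogenase, at -0.58, and Ogdh, of the 2-oxoglutarate dehydrogenase, at 0.55, lay just outside the threshold over kept features, with adjusted p of 0.0501 and 0.0618 (limma). None of 13 kept features of coenzyme Q synthesis was called, with a median of 0.02. The lowest unadjusted p there belonged to Coq8b at 0.50, Coq9 at 0.34 and Coq4 at -0.40. The carriers of adenine nucleotides, phosphate and protons and the outer membrane channels had 9 kept features, a median of 0.17 and 1 call. That was a dim feature of the phosphate carrier Slc25a3 at -0.72 (adjusted p = 0.0286 over kept features, limma), while the brightest feature of Slc25a3 had 0.42, Vdac1 0.30 and Slc25a4 0.18.

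Nuclear respiratory genes are known to share promoter motifs for NRF1, for ETS factors such as GABP (also called NRF-2) and for estrogen-related receptors. The 250 bases before the start of each gene were taken from RefSeq (GRCm38.p6), which held 76 of the 92 genes by symbol. GCGCANGCG, the NRF1 motif, was found on either strand in 15 of 76, or 19.7%, against 5.33% of all 27025 genes. CCGGAAG, the ETS motif, was found in 12, or 15.8%, against 7.05%, and TCAAGGTCA, the estrogen-related receptor motif, in 1, or 1.32%, against 0.366%. The median fold change on the brightest kept feature was 0.02 for 13 genes with the NRF1 motif and -0.03 for 49 without it. It was 0.12 for 8 genes with the ETS motif and -0.06 for 54 without it.

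The promoters of the called genes that the RefSeq table held, and of Cycs, are shown 5′ to 3′ on the strand of the gene and ending at its start, to let the motifs be seen beside the fold changes. Capitals mark the motif matches. They were NRF1 in Ndufaf4, 113 bases before the start, where both strands match in overlap, ETS in Uqcrh, 10 bases before it, and NRF1 in Cycs, 61 bases before it. None of the 3 motifs was found in Ndufv3 or Atp5g1. So of the genes that rose, Uqcrh held a match and Ndufv3 none, and of those that fell, Ndufaf4 held a match and Atp5g1 none. The windows were chr4:24897833-24898082 (+) for Ndufaf4, chr4:116075071-116075320 (-) for Uqcrh, chr17:31519865-31520114 (+) for Ndufv3, chr11:96075632-96075881 (-) for Atp5g1 and chr6:50566570-50566819 (-) for Cycs.
Ndufaf4: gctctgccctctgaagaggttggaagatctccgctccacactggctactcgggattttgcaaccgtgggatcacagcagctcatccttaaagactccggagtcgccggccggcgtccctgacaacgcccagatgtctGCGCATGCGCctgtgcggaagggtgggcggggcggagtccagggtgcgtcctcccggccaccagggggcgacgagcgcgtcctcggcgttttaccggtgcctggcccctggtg
Uqcrh: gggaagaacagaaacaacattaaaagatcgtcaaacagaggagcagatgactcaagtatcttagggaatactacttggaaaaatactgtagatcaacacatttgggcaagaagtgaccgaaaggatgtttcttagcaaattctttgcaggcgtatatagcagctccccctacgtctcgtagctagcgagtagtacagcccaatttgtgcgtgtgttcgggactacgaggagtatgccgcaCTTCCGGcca
Ndufv3: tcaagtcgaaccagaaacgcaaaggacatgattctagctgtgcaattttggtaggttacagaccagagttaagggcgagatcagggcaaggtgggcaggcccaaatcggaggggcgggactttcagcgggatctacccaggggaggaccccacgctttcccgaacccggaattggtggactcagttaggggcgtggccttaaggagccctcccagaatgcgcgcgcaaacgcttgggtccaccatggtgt
Atp5g1: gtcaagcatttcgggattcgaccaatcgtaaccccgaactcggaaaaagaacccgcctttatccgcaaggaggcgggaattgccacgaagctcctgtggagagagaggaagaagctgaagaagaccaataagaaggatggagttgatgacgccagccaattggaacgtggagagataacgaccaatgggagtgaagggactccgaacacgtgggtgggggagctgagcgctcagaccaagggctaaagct
Cycs: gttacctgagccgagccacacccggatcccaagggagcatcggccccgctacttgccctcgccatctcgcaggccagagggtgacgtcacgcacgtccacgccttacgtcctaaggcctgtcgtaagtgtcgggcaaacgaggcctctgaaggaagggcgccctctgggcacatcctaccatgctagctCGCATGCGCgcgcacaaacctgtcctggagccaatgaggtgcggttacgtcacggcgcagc

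Most fold changes of over 1 log2 unit lay in the misread stretches, with 22 of the 31 features there and 4 of the 99 kept ones. The 31 ran from -3.59 to 2.88, the kept ones from -0.95 to 1.91. With them included the median over all 130 features was -0.12, and that of complex IV was -0.09 in place of 0.20. Of the 31, 16 stood over 2 log2 units apart from the other arrays' median on 1 array, 3 on 2 arrays and 3 on all 4, against 1 of the 99 kept features. Such departures define the stretches, so these contrasts restate the rule that left the features out. In Ndufb4, a membrane arm subunit, the values were 7.77 and 7.78 in db/db pools and 13.97 and 7.88 in db/+ pools. Atp5o, Ndufb7, Ndufb11 and Uqcr10 showed the same form, with db/+ pool 1 far above the other pools.

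On 1 scan line both db/db pools were low in all 4 features: Uqcrq, Ndufa6, Ndufaf3 and the remaining feature of Ndufaf4 had fold changes between -3.17 and -1.84. The Ndufaf4 feature was at 9.66 and 8.82 in db/db pools, against 12.28 and 12.54 in db/+ pools. Uqcrq on that line was at 8.59 and 8.23 in db/db pools, against 10.64 and 11.07 in db/+ pools, a fold change of -2.44, while on its kept feature the fold change was -0.39. A rule that looks only for differences within a genotype keeps that line, and 9 features were then called, the additional ones being Uqcrq, Ndufaf4 and Ndufa6 there. For 17 genes every feature lay in a misread stretch, so they have no usable value: Atp5a1, Atp5e, Atp5k, Atp5o, Cox5b, Cox6b1, Cox6b2, Cox6c, Cox8b, Ndufa6, Ndufaf3, Ndufb11, Ndufb4, Ndufb7, Ndufb9, Uqcr10 and Uqcr11.

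**Figure D4:**
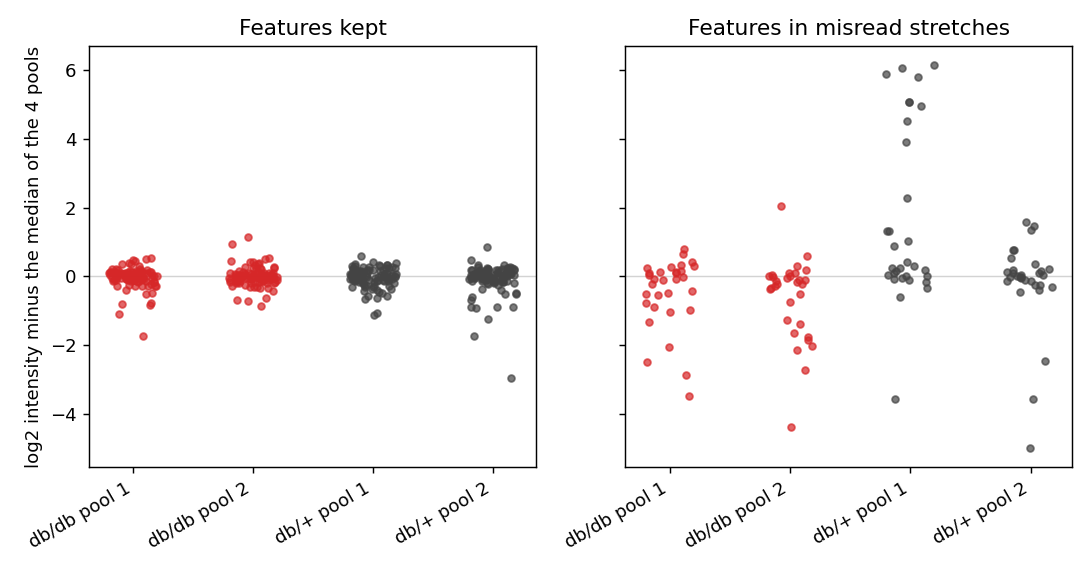
Log2 intensity of each feature minus its median over the 4 pools, for the 99 kept features (left) and the 31 in misread stretches (right), in db/db and then db/+ pools. Kept features stay close to 0 in every pool apart from single points, the lowest in db/+ pool 2, while in the stretches a set of features is several log2 units high in db/+ pool 1.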

How the data were processed

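RNA of 4 pools (2 db/db, 2 db/+) was read on one-colour arrays. Per the file headers, the deposited raw table holds median foreground intensity on a linear scale, not normalized, and the authors' deposited value table holds log2 intensity. The latter matched log2 of the raw values after quantile normalization without background correction to within 5.00e-09. The submitters' processing notes name limma. The genome build of the array design is not given in the sources used here. The annotation numbers features differently from the tables, so each feature's row was found through a grid layout inferred from the values. Within 218 accessions of at least 8 features (2293 in all) values then had a median absolute deviation of 0.138, against 1.10 when the row number was taken as the feature number. Every gene name rests on that layout.

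With limma 3.58.1 (R 4.3.3), the background was corrected by normexp (offset 50), followed by log2 and quantile normalization, and 33709 features were tested by lmFit and eBayes. A scan line of 266 spots was taken as misread where, on any array, over 5% of its spots departed by more than 2 log2 units from the other 3 arrays' median (40 of 170 lines). So was any run of 15 spots in which 3 or more departed. This left out 24.5% of gene features and kept 25467, which were tested again. The rule was chosen after the data had been seen and is not independent of the comparison. The members, lists and rule for named genes were chosen with earlier results of these data known. Named were genes with a called feature, the 4 genes of each complex with the smallest unadjusted p on the brightest kept feature, a fixed set of main subunits and isoforms, and 3 genes of each related list; Ndufa13, Ndufb4, Uqcrb, the other Ndufaf genes and those on 1 scan line were added after their values were seen. The number of arrays limits the precision, and raw intensities had medians of 102 and 176 in db/db pools and 254 and 151 in db/+ pools. Kept features correlated at r = 0.995 between db/db pools, 0.993 between db/+ pools and 0.982 to 0.986 between groups. The fits were tested on simulated data. Alternatives were other background corrections, scalings, filters, feature summaries, a replicate block and leaving out each pool.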

Additional observations from a re-analysis of the deposited data

How the results depend on the processing

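With 4 arrays, a scale set by quantile normalization and a misread rule that is not independent of the comparison, no call among the members held under every alternative. Leaving out a pool left 1 sample in a group, assumed to vary like the other group's pair, and 0 features of any gene were then called, so the loss of the 6 calls (lowest adjusted p from 0.0644 to 0.0990) says nothing about these genes. Their fold changes kept their sign, as in Atp5g1 (-0.62 to -0.56), Ndufaf6 (-0.54 to -0.49) and Uqcrh (1.04 to 1.66). The calls were also lost with the replicate number as a block (adjusted p from 0.0623 to 0.109). The causes below were not tested.

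Calls over all gene features were 336 (195 higher, 141 lower), against 377 without background correction (238 higher), 364 after median scaling (157 higher), 149 after cyclic loess (58 higher), 194 without dim features, 2089 without misread stretches, 2173 with those found within a genotype left out, and 1927 with stretches removed before normalization (1101 higher). Leaving out a pool gave 0 with or without the stretches. Among members, 0 calls became 2 after median scaling, both on features in a misread stretch (Uqcrq and Ndufaf4). They became 6 without misread stretches, 9 by differences within a genotype and 6 with stretches removed before normalization (4 of them among the 6). No label says which of the study's 2 experiments a replicate number stands for, and same-numbered pools did not deviate together (r = -0.0334), so the numbers were not treated as pairs. With the replicate block, 0 features were called over all gene features, 445 without misread stretches, and 0 members in either.

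The member median of -0.12 was 0.18 after median scaling and 0.01 without misread stretches (also with the block). It was -0.04 within a genotype and -0.06 with stretches removed before normalization. Without 1 pool it was -0.18 to -0.04 over all features and -0.03 to 0.04 over kept features. Median scaling gave 0.14, -0.20, 0.24, 0.13 and 0.41 for complexes I to V, where the main medians were -0.11, -0.31, -0.28, -0.09 and -0.04, and cyclic loess -0.14, -0.46, -0.16, 0.00 and 0.17. Without misread stretches (also with the block) complexes I, IV and V had -0.06, 0.20 and 0.31, and within a genotype -0.08, 0.20 and 0.26. With stretches removed before normalization I, II, IV and V had -0.16, -0.40, 0.15 and 0.15. Complex I had -0.08 by gene means, II -0.03 by the brightest feature, and IV -0.06 by the brightest feature or without background correction and 0.00 without dim features. Without 1 pool the ranges over all features were -0.15 to -0.06 (I), -0.31 to -0.03 (II), -0.25 to -0.19 (III), -0.10 to 0.05 (IV) and -0.18 to 0.09 (V). Over kept features they were -0.04 to -0.01 (I), -0.30 to 0.24 (II), -0.23 to -0.18 (III), 0.05 to 0.27 (IV) and 0.09 to 0.25 (V).

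Signs turned after median scaling for Atp5b (0.58), Atp5g1 (0.01), Atp5g2 (0.41), Cyc1 (0.01), Ndufa4 (0.45), Ndufc2 (0.19), Uqcrc1 (0.25), Uqcrc2 (0.03) and Uqcrq (0.23), after cyclic loess for Atp5b (0.17) and Ndufa4 (0.03), and with stretches removed before normalization for Uqcrfs1 (-0.04). Without 1 pool, values ran from -0.26 to 0.18 (Atp5b), -0.18 to 0.60 (Atp5g3), -0.02 to 1.79 (Cox7a2), -0.21 to 0.89 (Sdha) and -0.03 to 0.07 (Uqcrfs1), all turning without db/+ pool 2 (Atp5b also without db/db pool 1), and from -0.82 to 0.07 (Cycs) and -0.87 to 0.36 (Sdhb), both turning without db/db pool 2.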
